A study of Homo sapiens with 15 samples.

Results

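The 40 human genes described here are targets of the hypoxia-inducible factors (HIFs) that lie outside the main glycolytic chain, together with genes that sense oxygen or make up HIF itself. They were chosen by name, with earlier results of these data known. All 40 were present among the 60649 human genes of the deposited count table, and all 40 were among the 15435 human genes that passed the filter on low counts. HIF is a pair of proteins, an alpha subunit (HIF1A or EPAS1) and ARNT. In oxygen-rich cells the EGLN enzymes hydroxylate the alpha subunit, VHL then recognises it, and it is destroyed; when oxygen is scarce it persists and switches on genes for blood vessel growth, pH control, mitochondrial turnover and collagen handling. Solid tumours, lung adenocarcinoma among them, are known for poorly oxygenated zones in which these targets are transcribed.

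The libraries came from subcutaneous tumours grown from A549, 1 established human lung adenocarcinoma cell line, in BALB/c nude mice. These mice lack a thymus and therefore mature T cells, and keep macrophages and other innate cells. Each of the 3 groups held 5 tumours. Mice of the no-stress group were not restrained, those of the stress group were restrained 7 days before they received the cells, and those of the post-stress group 12 days after. Whether 7 and 12 are starting days or durations is not stated in the labels, which also give neither age nor sex of the mice. Nothing in the labels says how animals were assigned or whether tumours shared a cage. The p-values set group differences against the spread between libraries. A difference of cage or assignment between groups could not be told apart from one of restraint.

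Total counts ranged from 16729091 to 19680449 per library, of which 12877165 to 15892705 lay on human genes. Levels are given as CPM, the counts of a gene relative to all human counts of its library, after TMM scaling (a correction for differences in composition between libraries). The A549 identity was checked on 14 marker genes of the line, 13 of which passed the filter (KRT19 did not), with a summed level of 22801 to 29188 CPM without stress, 21500 to 25347 CPM with stress and 23261 to 27737 CPM with post-stress. CDKN2A, which the line lacks by deletion, had no count in 13 of 15 libraries, but 30 counts in stress replicate 4 and 5 counts in post-stress replicate 3. Of 20 endothelial, stromal and leukocyte genes 8 passed the filter, and 10 stayed under 1 CPM in every library. The summed level of the 20 was 133 to 235 CPM without stress, 143 to 203 CPM with stress and 108 to 244 CPM with post-stress. Mouse counts made up 15.6% to 30.2% of a library without stress, 18.6% to 24.6% with stress and 12.4% to 23.0% with post-stress, and replicates 1 and 5 of the no-stress group had the highest shares of all 15.

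With stress, most of the HIF targets were higher than without. Of the 40 genes 24 rose and 2, HIF1A and VHL, fell (edgeR quasi-likelihood test with Benjamini-Hochberg adjustment over all tested human genes, adjusted p under 0.05). Among all tested human genes 5.23% were called higher and 5.22% lower. The median log2 fold change of the 40 was 0.63, against −0.0072 over all tested genes. For 23 of the 40 every stressed tumour stood above every unstressed one, as did 4.09% of all tested genes. Of the 13 tested A549 marker genes 2 fell with stress, among them the aldehyde dehydrogenase ALDH3A1, and none rose. The median log2 fold change of the 13 was −0.24, with 9 of 13 negative. An unadjusted p under 0.05 was found in 8 of the 13, and in 4033 of all 15435 tested genes. With post-stress none of the 13 passed (median −0.093). There 2 of the 13 had an unadjusted p under 0.05, as did 2341 of all 15435 tested genes. None of the 8 tested endothelial, stromal and leukocyte genes passed with stress or post-stress (smallest adjusted p = 0.143 and 0.253). Their log2 fold changes ran from −0.30 to 1.46 with stress and from −0.42 to 1.69 with post-stress. The part of either marker list in the change of the 40 genes was not tested. These are bulk tumours, in which a larger fraction of cells with a response and a larger response per cell cannot be told apart.

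With post-stress, 36 of the 40 had a positive log2 fold change (median 0.45, against −0.0059 over all tested genes), but 5 passed the test: BNIP3, BNIP3L, PFKFB4, NDRG1 and PPFIA4. None of the 40 was called lower, although 4 had a negative log2 fold change. Among all tested human genes 0.596% were called higher and 0.246% lower. In 4 of the 40 genes (BNIP3L, PFKFB4, NDRG1 and PPFIA4) every post-stress tumour stood above every unstressed one, which held for 1.57% of all tested genes. Single tumours moved this count: 3 genes were called when replicate 1, 2 or 3 of the no-stress group or replicate 1 or 2 of the post-stress group was omitted, and 9 when post-stress replicate 5 was. Of all tested genes 0.237% to 0.531% were called in either direction in the former fits and 0.805% in the latter, against 0.842% with every tumour.

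Directly compared, stress and post-stress did not differ in any of the 40 genes at an adjusted p under 0.05, where 0.0259% of all tested genes were called higher and 0.013% lower with stress. DESeq2's Wald test and limma-voom also called 0 of the 40. At an unadjusted p under 0.05 there were 4 of the 40, a share similar to that of all tested genes (1716 of 15435). CA12, VLDLR and BHLHE40 were higher with stress and VHL was lower (adjusted p = 0.315, 0.357, 0.396 and 0.387). The widest gap was that of ADM (log2 fold change 0.63, SE 0.34, adjusted p = 0.523). All comparisons against no stress share the same 5 unstressed tumours, so that values of the stress and post-stress comparisons are given side by side below and are not independent of each other.

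**Figure D1:**
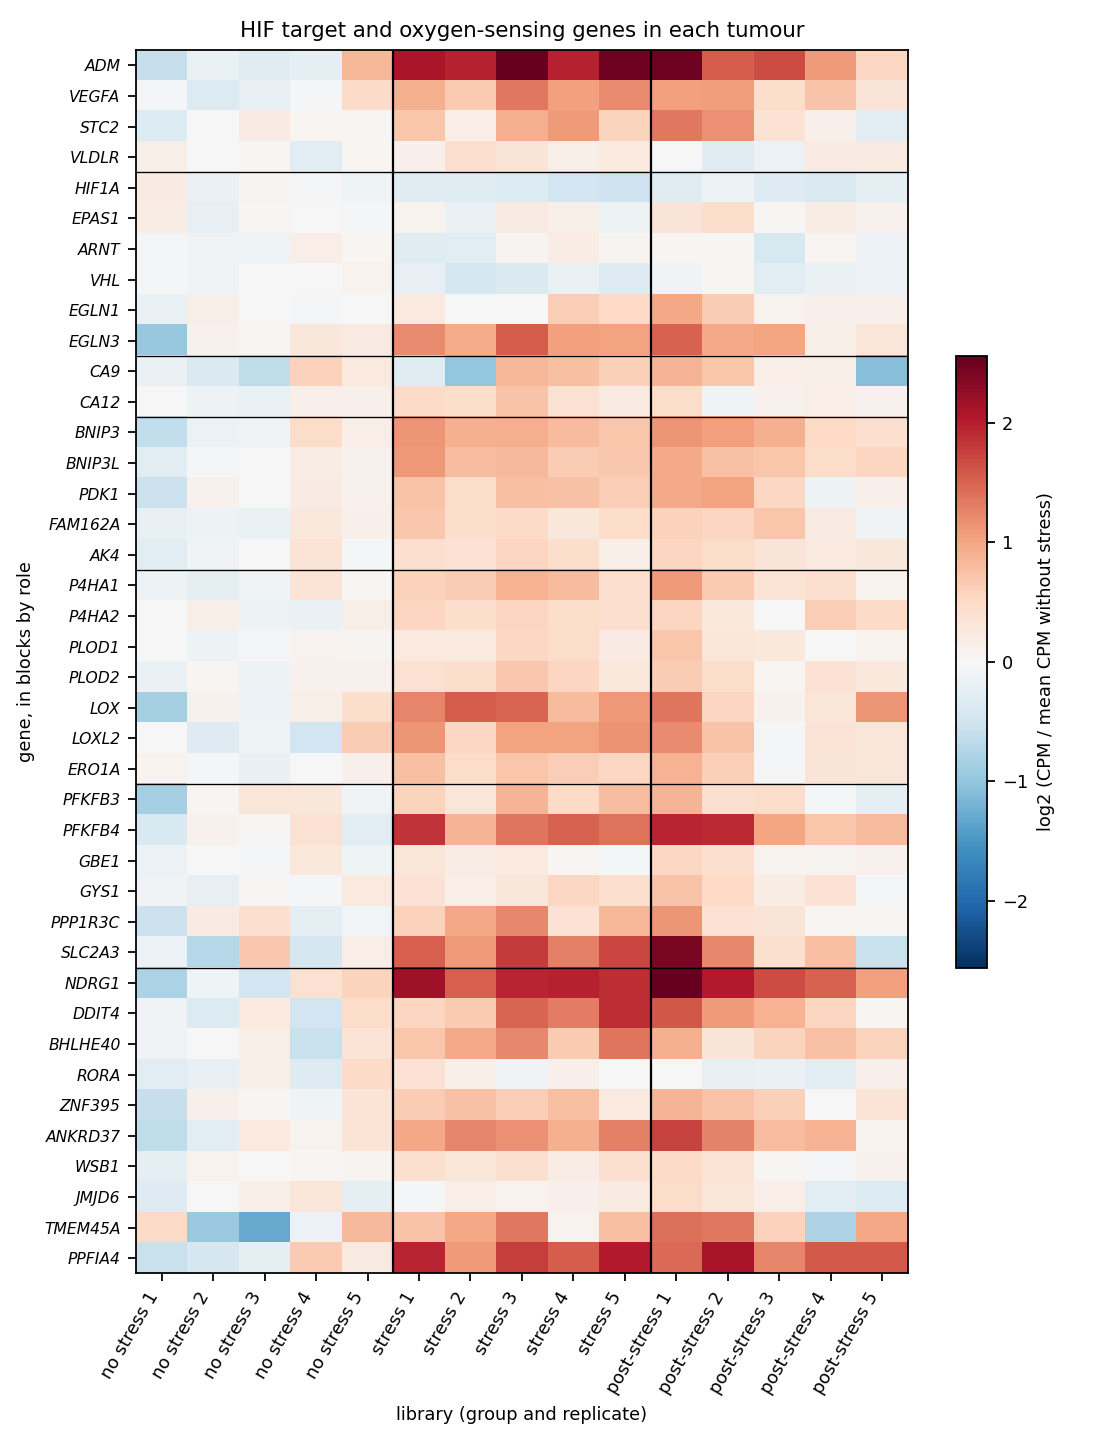
Level of each of the 40 genes (rows, in blocks by role) in each of the 15 tumours (columns, by group and replicate), as log2 of CPM over the mean CPM of the 5 unstressed tumours; red is higher and blue is lower than that mean. In the 5 stressed tumours 35 to 38 of the 40 genes lie above the unstressed mean, and post-stress replicate 1 is the reddest column of its group, with the highest value of the group in 29 of 40 genes.

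The heat map of all 15 tumours shows how evenly the stressed tumours moved and how unevenly the post-stress ones did. For each library the median over the 40 genes of log2 (CPM over the mean without stress) was taken. It was −0.17, −0.085, −0.00025, 0.077 and 0.13 in no-stress replicates 1 to 5. In stress replicates 1 to 5 it was 0.59, 0.46, 0.80, 0.63 and 0.55, all above the unstressed range. In post-stress replicates 1 to 5 it was 0.90, 0.58, 0.33, 0.22 and 0.13. The post-stress group thus held both the highest median of all 15 tumours and a value inside the unstressed range. Their mouse shares were 12.4%, 15.4%, 14.6%, 23.0% and 22.7%. With the mouse share as a covariate, 25 of the 40 genes were called higher with stress and 2, BNIP3L and PPFIA4, with post-stress, where 758 and 31 of all 15435 tested genes were called higher. The mouse share itself differed by −1.53 percentage points between stress and no stress (exact 2-sided permutation p = 0.619, adjusted p = 0.619) and by −4.95 points between post-stress and no stress (exact permutation p = 0.206, adjusted p = 0.310), where the smallest p such a test allows is 0.00794.

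HIF binds DNA at a short core, ACGTG or GCGTG, so the promoters of the genes were searched for it on both strands. RefSeq promoters (GRCh38.p14, 250 bases before to 50 bases after the start of transcription) were found for 32 of the 40 genes, 40 promoters in all, since some genes have several starts. The 8 genes without an entry included VEGFA, NDRG1 and BNIP3L. At least 1 core was present in 33 of the 40 promoters (82.5%). The list was made mostly of known HIF targets, so this share does not bear on what happened in these tumours. The share was 48.4% of all 35116 promoters of that length and 59.9% of the 15938 promoters of tested genes. Counted by gene the gap was smaller: 84.4% of the 32 genes and 69.0% of the 11014 tested genes with a promoter held a core in at least 1 of their promoters. Among promoters of genes that rose with stress 22 of 25 held a core, and among those of the other members 11 of 15. A core is a match of letters and does not show that HIF was bound, and the palindrome CACGTG, which is also the E-box read by other factors, counts once on each strand. The 250 bases before the start are shown for 5 genes that rose: PPFIA4, BNIP3 and PFKFB4, which rose in both restrained groups, ADM, the member with the largest fold change in stress, and EGLN3, whose window held no core. They are written 5′ to 3′ on the strand of the gene, with each core in capitals (ACGTG or GCGTG, or CACGT or CACGC where it lies on the other strand). PPFIA4 (chr1:203026241-203026490, plus strand) has 3 cores, BNIP3 (chr10:131981924-131982173, minus strand) has 6, PFKFB4 (chr3:48556804-48557053, minus strand) has 1, ADM (chr11:10304823-10305072, plus strand) has 1 and EGLN3 (chr14:33951075-33951324, minus strand) has 0. The RefSeq starts of ADM, PFKFB4 and EGLN3 lie 393, 5212 and 511700 bases inside the gene as GENCODE 29 draws it, so that other starts of these genes were not covered.
PPFIA4: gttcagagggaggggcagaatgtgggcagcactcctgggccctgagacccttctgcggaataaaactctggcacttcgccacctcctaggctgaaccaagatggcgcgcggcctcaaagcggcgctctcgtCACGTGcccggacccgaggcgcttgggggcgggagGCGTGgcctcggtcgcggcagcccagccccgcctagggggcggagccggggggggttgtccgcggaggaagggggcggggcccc
BNIP3: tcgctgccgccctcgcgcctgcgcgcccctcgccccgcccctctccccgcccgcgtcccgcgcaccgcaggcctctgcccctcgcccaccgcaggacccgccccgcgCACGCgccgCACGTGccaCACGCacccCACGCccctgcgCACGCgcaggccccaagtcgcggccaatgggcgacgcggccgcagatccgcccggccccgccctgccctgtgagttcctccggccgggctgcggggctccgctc
PFKFB4: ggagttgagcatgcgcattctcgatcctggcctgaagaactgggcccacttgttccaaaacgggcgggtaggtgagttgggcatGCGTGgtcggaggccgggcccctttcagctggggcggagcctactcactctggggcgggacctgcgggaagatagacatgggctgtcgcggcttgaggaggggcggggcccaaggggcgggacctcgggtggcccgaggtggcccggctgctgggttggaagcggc
ADM: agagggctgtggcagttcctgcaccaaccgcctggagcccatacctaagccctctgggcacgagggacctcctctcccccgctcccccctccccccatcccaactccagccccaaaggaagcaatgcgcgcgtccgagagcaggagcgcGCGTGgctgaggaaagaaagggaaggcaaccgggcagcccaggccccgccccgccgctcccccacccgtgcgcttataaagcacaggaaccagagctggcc
EGLN3: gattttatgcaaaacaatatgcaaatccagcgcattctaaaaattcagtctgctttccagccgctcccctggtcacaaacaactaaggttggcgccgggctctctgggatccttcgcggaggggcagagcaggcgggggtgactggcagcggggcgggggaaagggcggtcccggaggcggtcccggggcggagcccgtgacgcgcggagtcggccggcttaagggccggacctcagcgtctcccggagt

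Of the 3 secreted factors and 1 surface receptor, ADM and VEGFA rose with stress, while STC2 and VLDLR did not pass. Over all tested genes 5.23% were called higher there. Neither this block by role nor those below were tested as sets. ADM (chr11:10304680-10307397, plus strand) encodes adrenomedullin, a peptide that widens blood vessels. Its level was 30.1, 40.5, 36.5, 38.8 and 81.7 CPM in no-stress replicates 1 to 5 and 194, 178, 269, 178 and 256 CPM in stress replicates 1 to 5. In post-stress replicates 1 to 5 it was 255, 133, 145, 97.2 and 65.6 CPM. Every stressed tumour exceeded the highest unstressed one, which was replicate 5, and only post-stress replicate 5 fell back into the unstressed range. ADM was 4.72-fold higher with stress (log2 fold change 2.24, SE 0.36, adjusted p = 0.00391). With post-stress the difference was 3.06-fold and missed the threshold (log2 fold change 1.61, SE 0.35, adjusted p = 0.0520); without no-stress replicate 5 or post-stress replicate 5 it passed (adjusted p down to 0.0186).

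VEGFA (chr6:43770184-43786487, plus strand) encodes the main growth factor for blood vessel endothelium. Counts gave 175, 144, 158, 177 and 256 CPM in the unstressed tumours and 343, 289, 461, 376 and 420.4 CPM in the stressed ones, again in the order of replicates 1 to 5, which is kept below. The post-stress tumours had 375, 379.7, 249.8, 303 and 229 CPM. The stressed and unstressed tumours did not overlap, with no-stress replicate 5 the highest of its group, and 3 of 5 post-stress tumours lay above all unstressed ones. VEGFA rose 2.08-fold with stress (log2 fold change 1.05, SE 0.18, adjusted p = 0.00355), and was 1.69-fold higher with post-stress without passing (adjusted p = 0.0561); it passed without no-stress replicate 5, stress replicate 2 or post-stress replicate 5 (adjusted p down to 0.0136).

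STC2, stanniocalcin 2, a secreted glycoprotein, was measured at 91.6, 115, 135, 120.3 and 118 CPM without stress, 189, 131, 220.1, 248 and 172 CPM with stress and 296, 260.5, 150.4, 126 and 95.9 CPM with post-stress. In the stress group 4 of 5 tumours lay above the unstressed range, and the post-stress tumours ran from near its lower end to far above it. Neither difference passed (log2 fold change 0.73, SE 0.28, adjusted p = 0.111 in stress, and log2 fold change 0.68, SE 0.28, adjusted p = 0.261 in post-stress). The stress difference of STC2 passed with DESeq2's Wald test and with only the 2 groups compared (adjusted p down to 0.0153). VLDLR, a receptor that takes up lipoproteins, had 83.6 ± 8.78 CPM without stress (mean ± SD, n = 5), 100.2 ± 9.09 CPM with stress and 84.1 ± 13.1 CPM with post-stress, and passed in neither comparison (adjusted p = 0.117 and 0.983).

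**Figure D2:**
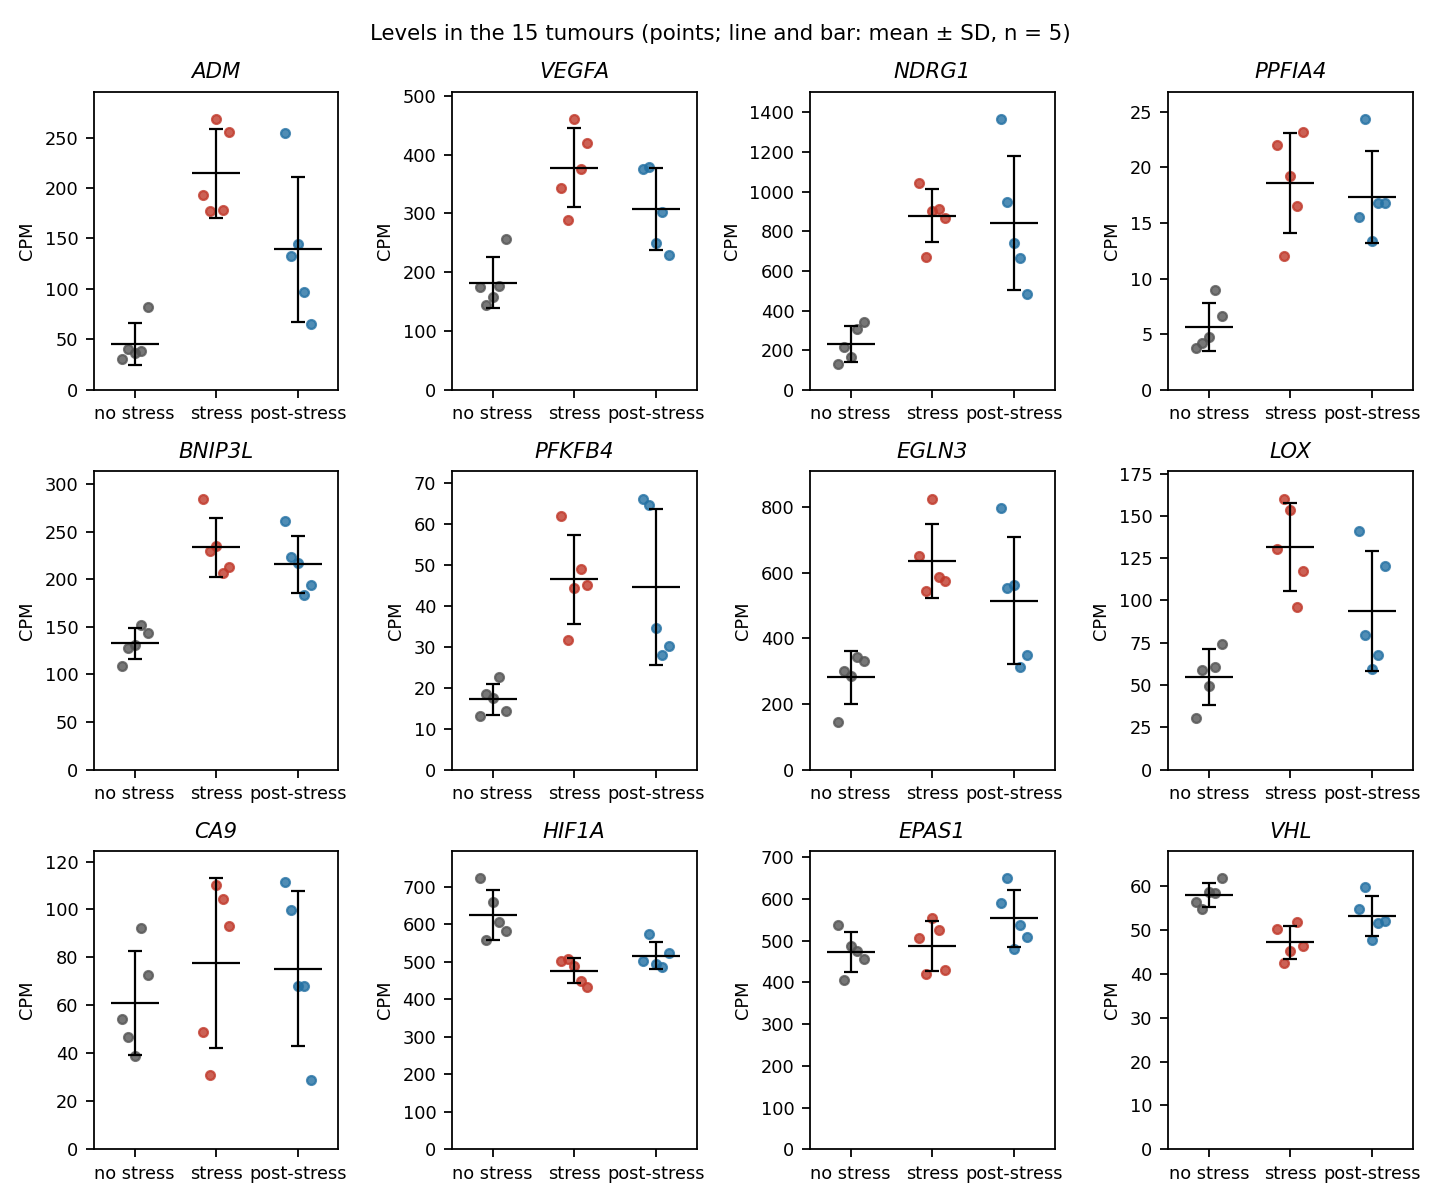
CPM of 12 of the 40 genes in each tumour (points, n = 5 per group), with group mean (line) and SD (bar); each axis starts at 0. In ADM, VEGFA, NDRG1, PPFIA4, BNIP3L, PFKFB4, EGLN3 and LOX every stressed tumour lies above every unstressed one, in HIF1A and VHL every stressed tumour lies below, and in CA9 and EPAS1 the groups overlap.

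Among the 6 genes that sense oxygen or form HIF, 1 (EGLN3) rose and 2 (HIF1A and VHL) fell with stress, and none passed with post-stress. The shares over all tested genes were 5.23% higher and 5.22% lower with stress. HIF1A (chr14:61695513-61748259, plus strand), the alpha subunit of HIF-1, is governed mainly through the stability of its protein, which RNA counts do not show. Its RNA stood at 722, 557, 658, 606 and 581 CPM in the unstressed tumours, 502, 506, 489, 447 and 432 CPM in the stressed tumours and 502, 574, 494, 486 and 524 CPM in the post-stress tumours. All 5 stressed tumours and 4 of 5 post-stress tumours were below the lowest unstressed one. The fall was to 0.761 of the unstressed level in stress (log2 fold change −0.39, SE 0.087, adjusted p = 0.0101), and the post-stress value was 0.826 of it (log2 fold change −0.28, SE 0.086, adjusted p = 0.138). DESeq2's Wald test called HIF1A lower with post-stress (adjusted p = 0.0391). Omitting replicates 1 and 5 of the no-stress group at once ended the stress call (adjusted p = 0.0567).

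EPAS1 (chr2:46293667-46386703, plus strand), the alpha subunit of HIF-2, had 538, 405, 486, 475 and 456 CPM without stress and 506, 419, 555, 526 and 429 CPM with stress. With post-stress it had 590.4, 649, 479.9, 538 and 508 CPM. The 3 groups overlapped, with post-stress replicates 1 and 2 above all unstressed and stressed tumours. Neither comparison passed (adjusted p = 0.836 in stress and 0.315 in post-stress). ARNT, the shared partner of both alpha subunits, was at 49.4 ± 3.81, 48.2 ± 7.30 and 46.7 ± 6.06 CPM in the no-stress, stress and post-stress groups (adjusted p = 0.881 and 0.787).

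VHL (chr3:10141008-10152220, plus strand), the subunit of the ubiquitin ligase that recognises hydroxylated HIF, went from 58.0 ± 2.64 CPM (54.7 to 61.8) without stress to 47.2 ± 3.78 CPM (42.5 to 51.8) with stress (log2 fold change −0.30, SE 0.075, adjusted p = 0.0192). All 5 stressed tumours were below all unstressed ones. The call was lost when stress replicate 2 or 3 was omitted (adjusted p up to 0.0547), and when replicates 1 and 5 of the no-stress group were omitted at once. In the post-stress tumours the level was 53.2 ± 4.47 CPM (adjusted p = 0.460).

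Of the 2 prolyl hydroxylases EGLN3 rose and EGLN1 did not pass; whether they differ from each other was not tested. EGLN3 (chr14:33924231-34462774, minus strand) is itself a HIF target and feeds back on HIF. It was counted at 144, 301, 286, 343 and 330.3 CPM without stress, 652, 545, 827, 586 and 575 CPM with stress and 797, 553, 564, 312 and 349.9 CPM with post-stress. All stressed tumours stood above all unstressed ones, no-stress replicate 1 was far below the rest of its group, and post-stress replicates 4 and 5 were near the unstressed level. EGLN3 rose 2.27-fold with stress (log2 fold change 1.18, SE 0.26, adjusted p = 0.0143); the post-stress difference of 1.83-fold did not pass (adjusted p = 0.135). EGLN1 (chr1:231363751-231425044, minus strand), the enzyme that does most of the hydroxylation of HIF in oxygenated cells, had 26.2, 32.7, 29.6, 28.8 and 29.4 CPM without stress and 34.8, 29.4, 29.5, 45.1 and 41.5 CPM with stress. The post-stress tumours had 58.2, 45.9, 31.4, 32.1 and 32.3 CPM. Stress replicates 1, 4 and 5 and post-stress replicates 1 and 2 were above the unstressed range, and the others inside it. No comparison of EGLN1 passed (adjusted p = 0.282 and 0.216).

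Carbonic anhydrases turn carbon dioxide into bicarbonate at the cell surface and help tumour cells keep their pH. CA9 (chr9:35673856-35681159, plus strand), a widely used marker of hypoxia, was measured at 54.2, 46.9, 38.8, 92.4 and 72.6 CPM without stress, 49.1, 30.8, 110.3, 104 and 93.1 CPM with stress and 112, 99.6, 68.2, 68.1 and 28.7 CPM with post-stress. In each group some tumours were high and others low: stress replicate 2 and post-stress replicate 5 lay under every unstressed tumour, and stress replicates 3 to 5 above. The difference was 0.35 with an SE of 0.40 on the log2 scale in stress (adjusted p = 0.634) and 0.31 with an SE of 0.40 in post-stress (adjusted p = 0.778). Of the exonic bases of CA9 38.5% overlap ARHGEF39 on the other strand, and whether the counting used strand is not given in the sources used here. CA12 rose from 1320.1 ± 132 to 1827 ± 231 CPM with stress (log2 fold change 0.47, SE 0.12, adjusted p = 0.0180), with no overlap of the groups; omitting no-stress replicate 3 ended that call (adjusted p = 0.0536). With post-stress CA12 had 1476 ± 221 CPM (adjusted p = 0.546).

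All 5 genes of the list that act on mitochondria rose with stress, and 2 of them, the related mitophagy receptors BNIP3 and BNIP3L, also with post-stress. Over all tested genes 5.23% were called higher with stress and 0.596% with post-stress, and this block was not tested as a set. The BNIP3 and BNIP3L proteins sit on the outer membrane and mark mitochondria for removal. BNIP3 (chr10:131966455-131982013, minus strand) had 80.1, 111, 117, 173 and 139.8 CPM without stress and 274, 234, 236, 219 and 204 CPM with stress. With post-stress it had 273, 259, 233, 177 and 167 CPM. The stressed tumours were all above the unstressed range, of which replicate 4 was the highest, and post-stress replicate 5 lay just inside it. The rise was 1.88-fold with stress (log2 fold change 0.91, SE 0.18, adjusted p = 0.00736) and 1.79-fold with post-stress (log2 fold change 0.84, SE 0.18, adjusted p = 0.0436). Omitting any 1 of 11 tumours ended the post-stress call (adjusted p rose to at most 0.124): no-stress replicates 1, 2, 3 and 5, stress replicates 2 to 5, and post-stress replicates 1 to 3.

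BNIP3L (chr8:26382898-26505636, plus strand) stood at 108, 128, 131, 152 and 144 CPM in the unstressed tumours, 285, 229.5, 235, 207 and 213 CPM in the stressed tumours and 261, 223, 217, 183 and 194 CPM in the post-stress tumours. Each restrained tumour of either group was above each unstressed one. BNIP3L rose 1.76-fold with stress (log2 fold change 0.82, SE 0.11, adjusted p = 0.00103) and 1.63-fold with post-stress (log2 fold change 0.70, SE 0.11, adjusted p = 0.00854), the smallest adjusted p of the 40 genes in the former comparison, and both calls held in every fit run. Stress and post-stress differed by 0.12 on the log2 scale (SE 0.11, adjusted p = 0.747).

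PDK1 (chr2:172555373-172608669, plus strand), pyruvate dehydrogenase kinase, which keeps pyruvate out of the mitochondrial citric acid cycle, was counted at 23.2, 36.8, 34.6, 39.5 and 36.9 CPM without stress and 57.1, 47.3, 58.3, 57.7 and 52.7 CPM with stress. The post-stress tumours gave 67.0, 70.3, 49.2, 31.2 and 37.3 CPM. All stressed tumours were above all unstressed ones, with no-stress replicate 1 the lowest tumour of all, while post-stress replicates 4 and 5 were within the unstressed range. PDK1 rose 1.60-fold with stress (log2 fold change 0.67, SE 0.20, adjusted p = 0.0446), close to the threshold: omitting any 1 of the 10 unstressed and stressed tumours, or post-stress replicate 3, ended the call (adjusted p at most 0.105). With post-stress it did not pass (adjusted p = 0.189).

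FAM162A, a mitochondrial protein linked to cell death in hypoxia, rose from 65.6 ± 9.82 to 91.6 ± 9.53 CPM with stress (log2 fold change 0.48, SE 0.13, adjusted p = 0.0309), and AK4, an adenylate kinase of the mitochondrial matrix, from 131 ± 22.7 to 173 ± 16.6 CPM (log2 fold change 0.40, SE 0.11, adjusted p = 0.0251). The groups did not overlap in FAM162A, and 1 stressed tumour lay inside the unstressed range in AK4. Both calls depended on single tumours. FAM162A no longer passed when replicate 1, 2 or 3 of the unstressed or replicate 1, 2, 3 or 5 of the stressed tumours was omitted (adjusted p at most 0.0854), and AK4 when replicate 1 or 3 of either group was (at most 0.0696). The post-stress means were 88.1 ± 18.4 and 171 ± 15.2 CPM (adjusted p = 0.140 and 0.0933).

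Of 7 genes that modify collagen or fold secreted proteins 6 rose with stress, and none passed with post-stress, although all 7 had positive log2 fold changes there (0.30 to 0.78). The share called higher over all tested genes was 5.23% with stress and 0.596% with post-stress. P4HA1 (chr10:73007217-73096974, minus strand) is a catalytic subunit of collagen prolyl hydroxylase. Its level was 119, 109.6, 122, 166 and 133 CPM without stress, 195, 205, 242, 229 and 175 CPM with stress and 278, 206, 166, 172 and 139 CPM with post-stress. The stressed tumours were all above the highest unstressed one, replicate 4, and so were 4 of 5 post-stress tumours. P4HA1 rose 1.61-fold with stress (log2 fold change 0.69, SE 0.16, adjusted p = 0.0156), a call that was lost with both replicates 1 and 5 of the no-stress group omitted (adjusted p = 0.0930), and had an adjusted p of 0.113 with post-stress. The other catalytic subunit, P4HA2, rose from 57.9 ± 6.02 to 81.3 ± 3.48 CPM with stress (log2 fold change 0.49, SE 0.10, adjusted p = 0.00794) and had 76.8 ± 12.8 CPM with post-stress (adjusted p = 0.0674).

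LOX (chr5:122063195-122078360, minus strand), lysyl oxidase, crosslinks collagen outside the cell. It had 30.2, 58.9, 49.3, 60.7 and 74.2 CPM without stress and 130.2, 160.2, 154, 96.2 and 117 CPM with stress. With post-stress it had 141, 79.7, 59.3, 67.8 and 120.1 CPM. Stressed and unstressed tumours did not overlap, and post-stress replicates 3 and 4 lay within the unstressed range. LOX rose 2.41-fold with stress (log2 fold change 1.27, SE 0.27, adjusted p = 0.0125) and was 1.71-fold higher with post-stress without passing (adjusted p = 0.192). Its relative LOXL2 rose from 54.4 ± 18.4 to 108 ± 17.2 CPM with stress (log2 fold change 0.99, SE 0.24, adjusted p = 0.0221), where stress replicate 2 (78.2 CPM) stood below no-stress replicate 5; omitting replicate 1 or 3 of the unstressed tumours, or stressed replicate 1, ended the call (adjusted p at most 0.0563).

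The lysyl hydroxylase PLOD2 rose from 1127 ± 101 to 1571 ± 171 CPM with stress (log2 fold change 0.48, SE 0.11, adjusted p = 0.0141), which was lost with replicates 1 and 5 of the no-stress group both omitted (adjusted p = 0.0773). PLOD1, of the same family, went from 106 ± 6.72 to 135 ± 14.2 CPM with no overlap of the groups and narrowly did not pass (adjusted p = 0.0543); it passed without post-stress replicate 1 or 4. ERO1A, the oxidase that drives disulphide formation in the endoplasmic reticulum, rose from 155 ± 13.1 to 239.7 ± 20.9 CPM (log2 fold change 0.63, SE 0.13, adjusted p = 0.00715). In the post-stress tumours PLOD1, PLOD2 and ERO1A had 130.3 ± 25.9, 1459 ± 223 and 212 ± 51.3 CPM.

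**Figure D3:**
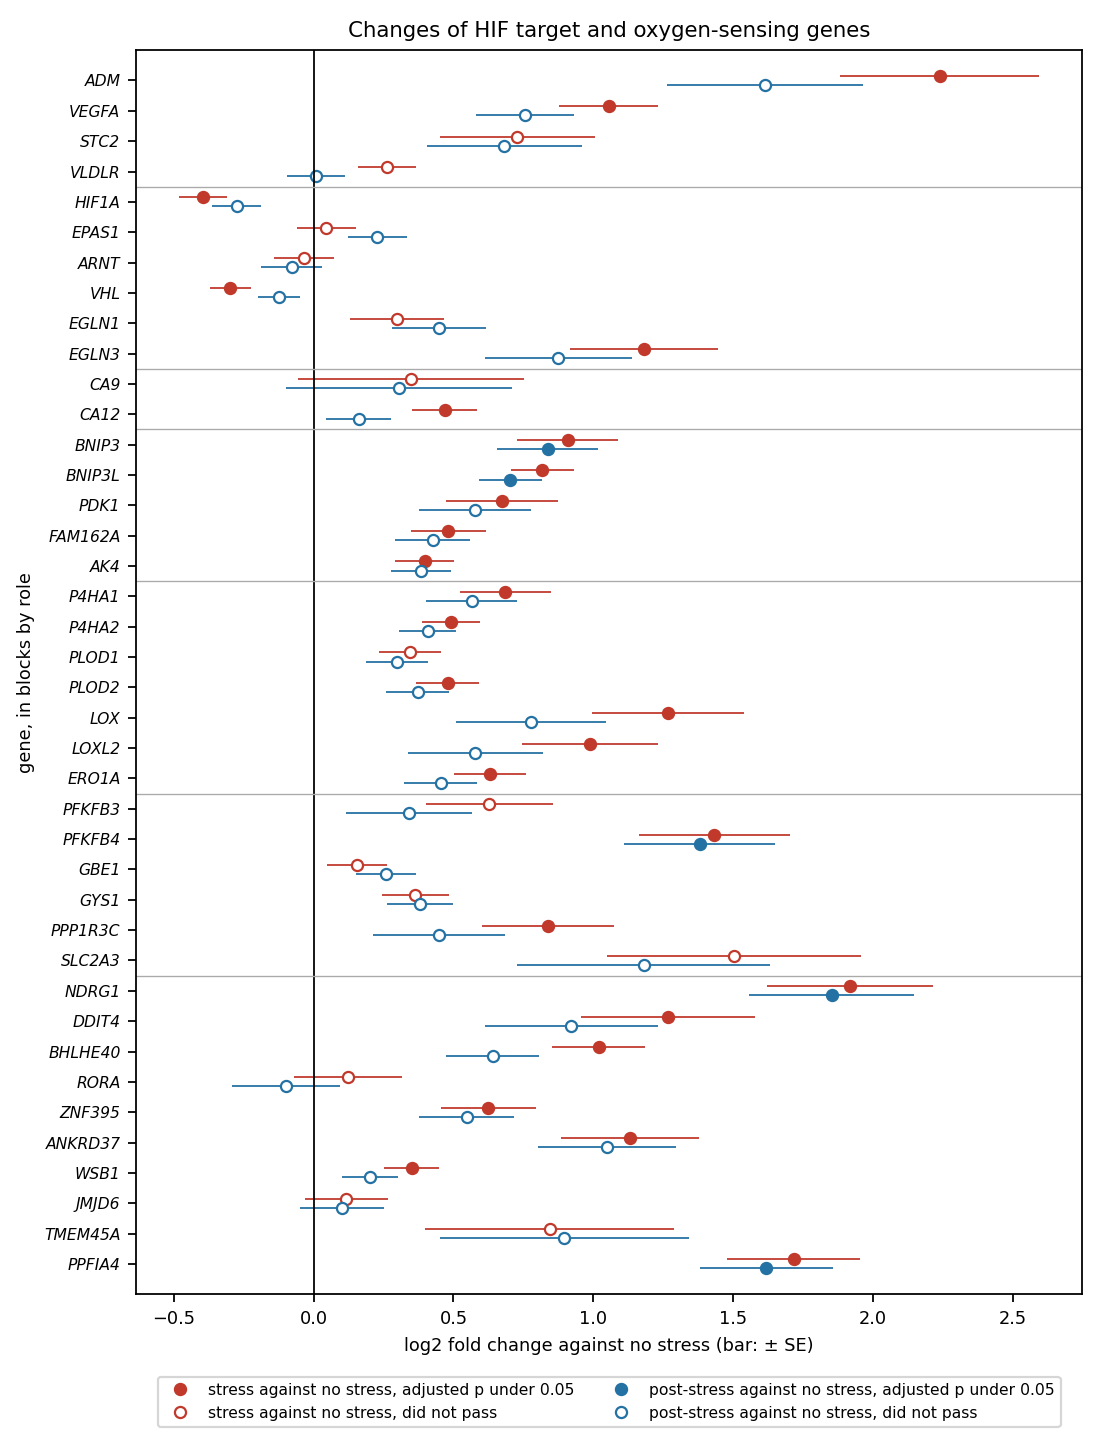
Log2 fold change against no stress (x axis; bars are ± SE) of each of the 40 genes in stress (red) and post-stress (blue); filled points passed an adjusted p under 0.05. With stress 24 filled points lie right of 0 and 2, HIF1A and VHL, left of it; with post-stress 5 are filled, all right of 0.

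Of 6 genes on side branches of sugar use 2 rose with stress, PFKFB4 and PPP1R3C, and PFKFB4 rose also with post-stress. Over all tested genes 5.23% and 0.596% were called higher in these comparisons. PFKFB4 (chr3:48517684-48562015, minus strand) makes and breaks down a fructose bisphosphate that activates phosphofructokinase. It was measured at 13.1, 18.6, 17.5, 22.6 and 14.3 CPM without stress, 62.0, 31.6, 44.4, 49.1 and 45.2 CPM with stress and 66.2, 64.6, 34.7, 27.9 and 30.1 CPM with post-stress. No restrained tumour of either group overlapped the unstressed ones, and post-stress replicates 1 and 2 were well above the other post-stress tumours. PFKFB4 rose 2.70-fold with stress (log2 fold change 1.43, SE 0.27, adjusted p = 0.00688) and 2.60-fold with post-stress (log2 fold change 1.38, SE 0.27, adjusted p = 0.0337). The stress call was lost when unstressed replicates 1 and 5 were both omitted (adjusted p = 0.0576), and the post-stress call when 1 of unstressed replicates 1, 2, 3 and 5 or post-stress replicates 1 and 2 was (adjusted p at most 0.110).

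PPP1R3C, which brings a phosphatase to glycogen, rose from 83.9 ± 21.9 to 150.0 ± 34.1 CPM with stress (log2 fold change 0.84, SE 0.24, adjusted p = 0.0387), with 4 of 5 stressed tumours above the unstressed range. Omitting unstressed replicate 1, 4 or 5, or stressed replicate 1, 2, 3 or 5, ended that call (adjusted p at most 0.0973). SLC2A3, a high-affinity glucose transporter, spread widely: 29.7 to 80.4 CPM without stress, 106 to 171 CPM with stress and 33.4 to 263 CPM with post-stress. Its stressed tumours were all above the unstressed ones, the 2.84-fold difference missed the threshold (adjusted p = 0.0519), and it passed without post-stress replicate 1 or 5. SLC2A3 has a near-identical copy, SLC2A14, between which counting can divide reads. PFKFB3, the sister enzyme of PFKFB4, the glycogen synthase GYS1 and the branching enzyme GBE1 had adjusted p of 0.0903, 0.0597 and 0.379 with stress, at 1.55-fold, 1.29-fold and 1.11-fold; GYS1 passed without no-stress replicate 5, post-stress replicate 1 or post-stress replicate 5. PFKFB3 passed with stress under DESeq2's Wald test and with the mouse share as a covariate (adjusted p down to 0.0229). With post-stress PPP1R3C, SLC2A3, PFKFB3, GYS1 and GBE1 had adjusted p of 0.395, 0.236, 0.511, 0.138 and 0.257.

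Of the remaining 10 targets 7 rose with stress and 2, NDRG1 and PPFIA4, with post-stress. The shares called higher over all tested genes were 5.23% and 0.596%. NDRG1 (chr8:133237171-133302022, minus strand) is a stress-responsive cytoplasmic protein whose induction is a standard sign of hypoxia in tumours. It had 132, 217, 165, 307 and 344 CPM without stress and 1043, 671, 904, 911 and 869 CPM with stress. With post-stress it had 1368, 947, 741, 663 and 485 CPM. No restrained tumour came down to the unstressed range, and post-stress replicate 1 was the highest of all 15 tumours. NDRG1 was 3.78-fold higher with stress (log2 fold change 1.92, SE 0.30, adjusted p = 0.00323) and 3.61-fold higher with post-stress (log2 fold change 1.85, SE 0.30, adjusted p = 0.0103), the widest post-stress change of the 40 genes. The post-stress call held without any 1 tumour, and ended in 3 of 10 other fits, among them that with the mouse share as a covariate (adjusted p = 0.0771).

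PPFIA4 (chr1:203026498-203078740, plus strand), a liprin-alpha scaffold protein best known at synapses, was present at low counts. Its values were 3.79, 4.19, 4.77, 8.95 and 6.62 CPM without stress, 21.98, 12.0, 19.3, 16.5 and 23.2 CPM with stress and 15.5, 24.4, 13.4, 16.8 and 16.8 CPM with post-stress. The lowest restrained tumour exceeded the highest unstressed one, no-stress replicate 4. The rise was 3.29-fold with stress (log2 fold change 1.72, SE 0.24, adjusted p = 0.00128) and 3.07-fold with post-stress (log2 fold change 1.62, SE 0.24, adjusted p = 0.00658), and both calls held in every fit run. Its printed promoter has 3 cores, of which the palindrome gives a core on each strand. Other members have as many or more, such as ANKRD37 with 3 and BNIP3 with 6.

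DDIT4, an inhibitor of the growth kinase mTORC1, rose from 505 ± 141 to 1215 ± 469 CPM with stress (log2 fold change 1.27, SE 0.31, adjusted p = 0.0223). Stressed tumours ranged from 734 to 1877 CPM, all above the unstressed ones, and omitting unstressed replicate 1 or stressed replicate 5 ended the call (adjusted p at most 0.0602). Of its exonic bases 41.2% overlap the antisense gene DDIT4-AS1. BHLHE40, a repressor that also acts on the circadian clock, rose from 276 ± 61.3 to 559 ± 121 CPM (log2 fold change 1.02, SE 0.17, adjusted p = 0.00306) without overlap of the groups, and its post-stress mean was 430.0 ± 63.6 CPM (adjusted p = 0.0804; 0.00792 with DESeq2's Wald test).

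ANKRD37, a small ankyrin repeat protein, rose from 4.08 ± 1.07 to 8.94 ± 1.01 CPM with stress (log2 fold change 1.13, SE 0.25, adjusted p = 0.00964) and had 8.45 ± 3.42 CPM with post-stress (adjusted p = 0.0520). That post-stress value passed without no-stress or post-stress replicate 5. The transcription factor ZNF395 rose from 26.7 ± 6.01 to 41.2 ± 5.55 CPM (log2 fold change 0.62, SE 0.17, adjusted p = 0.0298) and WSB1, part of a ubiquitin ligase, from 168 ± 15.2 to 214 ± 14.4 CPM (log2 fold change 0.35, SE 0.099, adjusted p = 0.0330). ZNF395 lost its call when unstressed replicate 1, 3 or 4 or stressed replicate 1, 2 or 3 was omitted (adjusted p at most 0.0679), and WSB1 when unstressed replicate 1 or 3 or stressed replicate 1, 2, 3 or 5 was (at most 0.0927). The exons of ANKRD37 overlap UFSP2 on the other strand over 35.2% of their bases, and those of ZNF395 overlap FBXO16 on the same strand over 34.9%, so that their counts can be divided or shared with these neighbours.

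Neither RORA, a nuclear receptor of the circadian clock, nor JMJD6, an oxygenase of the nucleus, nor the membrane protein TMEM45A passed with stress (adjusted p = 0.736, 0.667 and 0.253) or with post-stress (adjusted p = 0.858, 0.806 and 0.365). RORA was at 3.07 ± 0.794, 3.34 ± 0.425 and 2.86 ± 0.332 CPM and JMJD6 at 36.1 ± 6.67, 39.2 ± 2.75 and 38.7 ± 9.45 CPM in the no-stress, stress and post-stress groups. TMEM45A varied from 6.56 to 28.3 CPM among the unstressed tumours alone, and had 28.6 ± 8.60 CPM with stress. With post-stress DDIT4, ZNF395 and WSB1 had 1.89-fold, 1.46-fold and 1.15-fold differences that did not pass (adjusted p = 0.179, 0.139 and 0.347).

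The wider pathway was read from 4 further lists, which were also chosen with earlier results of these data known. Of 25 other HIF targets 23 were tested, of which 16 were called higher and 1 lower with stress, and 9 higher and 0 lower with post-stress. Of all tested genes 5.23% were called higher and 5.22% lower with stress, and 0.596% and 0.246% with post-stress. INSIG2, which holds sterol sensors in the endoplasmic reticulum, rose 1.92-fold with stress (adjusted p = 0.000422) and 1.71-fold with post-stress (adjusted p = 0.00658). KLHL24 and ANKZF1 rose 1.62-fold and 1.58-fold with stress (adjusted p = 0.00250 and 0.00341), and 1.58-fold and 1.59-fold with post-stress (adjusted p = 0.00921 and 0.00921). HILPDA, a lipid droplet protein, rose 3.42-fold with stress (adjusted p = 0.00287) and 2.33-fold with post-stress (adjusted p = 0.0491). Its post-stress call was lost in 11 of 15 fits without 1 tumour (adjusted p at most 0.146) and in 6 of 10 other fits (at most 0.222). The histone demethylase KDM4C rose 1.20-fold with stress (adjusted p = 0.0383) and 1.34-fold with post-stress (adjusted p = 0.0141). Its stress call was lost in 8 of 15 fits without 1 tumour (adjusted p at most 0.0878), and its post-stress call without no-stress replicate 1 (adjusted p = 0.0519), without both replicates 1 and 5 of that group, with the mouse share as a covariate and with only the 2 groups in the fit (adjusted p at most 0.159). TFRC, the transferrin receptor, was the gene that fell with stress, to 0.651 of the unstressed level (adjusted p = 0.0223), a call lost when replicate 1 of either group, or stressed replicate 5, was omitted (adjusted p at most 0.0655).

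Of 15 glycolytic HIF targets 4 rose with stress, the enolase ENO2, the hexokinase HK2, the phosphofructokinase PFKP and the glucose transporter SLC2A1. With post-stress 3 rose, ENO2, HK2 and PFKP, and none was called lower in either comparison. Of all tested genes 5.23% were called higher with stress and 0.596% with post-stress. Log2 fold changes were positive in 12 of the 15 with stress (median 0.24) and in all 15 with post-stress (median 0.26). The post-stress call of PFKP was lost when unstressed replicate 1 or 3 was omitted (adjusted p at most 0.0533). It was also lost in 3 of 10 other fits, among them that with the mouse share as a covariate (at most 0.116). The post-stress call of HK2 was lost with any 1 of 9 tumours omitted: unstressed replicates 1 to 3, stressed replicates 3 to 5, and post-stress replicates 1, 2 and 4 (at most 0.122). For HK2 this also happened in 5 of 10 other fits, again with the covariate among them (at most 0.161). ENO2 went from 63.7 ± 9.76 to 163 ± 19.9 CPM with stress (adjusted p = 5.81e-05) and to 129 ± 25.7 CPM with post-stress (adjusted p = 0.00159). Of 16 other genes of the oxygen-sensing machinery 15 were tested. Of these 1, SIAH1, rose with stress (1.38-fold, adjusted p = 0.0284), where 5.23% of all tested genes were called higher. That call was lost when unstressed replicate 1, 3 or 4 or stressed replicate 1 or 2 was omitted (adjusted p at most 0.0817). SIAH1 is a ubiquitin ligase that acts on EGLN3. None of the 15 passed with post-stress at an adjusted p under 0.05, where CUL2, the scaffold of the VHL ligase, had the smallest value (0.787 of the unstressed level, adjusted p = 0.0604).

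Family members that are not in the list of 40 were examined next. Of 35 such paralogs 31 were tested, with a median log2 fold change of 0.046 in stress. With stress 2 rose, STC1 and PPP1R3B, and 3 fell, PFKFB2, NDRG2 and LRP8. Of all tested genes 5.23% were called higher and 5.22% lower there. STC1, the sister of STC2, rose 3.40-fold, from 70.2 ± 26.9 to 238 ± 69.9 CPM (adjusted p = 0.0148). PPP1R3B, a glycogen targeting subunit like PPP1R3C, rose 2.45-fold at a low level of 4.57 ± 0.902 CPM (adjusted p = 0.0331). PFKFB2, of the family of PFKFB4, fell to 0.665 of the unstressed level (adjusted p = 0.00522), and NDRG2, of the family of NDRG1, to 0.546 of it (adjusted p = 0.0365). LRP8, a lipoprotein receptor related to VLDLR, fell to 0.631 with stress (adjusted p = 0.00239) and to 0.680 with post-stress (adjusted p = 0.0193). It was the sole paralog called in the latter, where 0.246% of all tested genes were called lower. The call of PPP1R3B was lost when unstressed replicate 1, 3 or 4 or stressed replicate 2, 3 or 5 was omitted, and that of NDRG2 when unstressed replicate 1, 4 or 5 or one of stressed replicates 1 to 4 was (adjusted p at most 0.0845 and 0.117). The post-stress call of LRP8 was lost when unstressed replicate 1 or 3 or post-stress replicate 1 or 2 was omitted (adjusted p at most 0.0682). It was also lost in 4 of 10 other fits, among them that with the mouse share as a covariate (at most 0.0897).

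**Figure D4:**
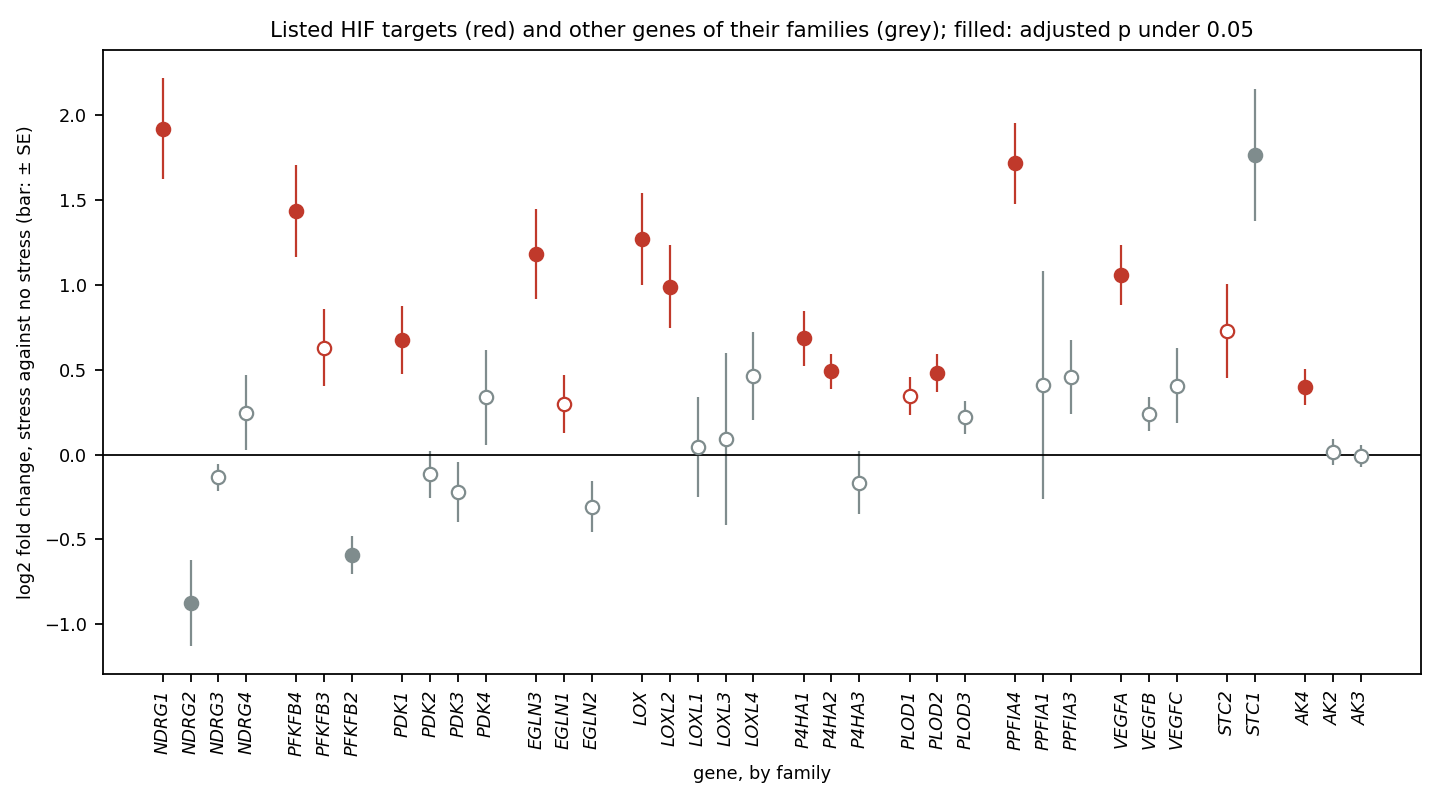
Log2 fold change in stress against no stress (y axis; bars are ± SE) for genes of the list (red) and other genes of the same families (grey), grouped by family along the x axis; filled points passed an adjusted p under 0.05. Beside NDRG1 at 1.92 and PFKFB4 at 1.43 lie NDRG2 at −0.87 and PFKFB2 at −0.59, and beside STC2 at 0.73 lies STC1 at 1.77.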

How the data were processed

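RNA of 15 xenograft tumours (3 groups of 5) was sequenced; per the labels' protocols it was extracted with TRIzol and made into libraries with an Abclonal kit. The authors deposited raw gene counts for 60649 human and 56941 mouse genes. Per the submitters' processing notes, reads were handled with Trimmomatic 0.39, HISAT2 2.2.1 (hg38 and mm10) and featureCounts 2.0.6; DESeq2 and edgeR are also named there. The annotation, the strandedness and the order in which the genomes were used are not stated here, so mouse reads of conserved sequence may lie on human genes. The table's column names Control, Pre and Post were matched to no stress, stress and post-stress by replicate number; "Pre" occurs in no label and was read as restraint before transplantation.

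The 40 genes and all other lists were chosen with earlier results of these data known. Of 60649 human identifiers 60463 had a symbol in the reference name table, positions are those of GENCODE 29 and promoters those of RefSeq. Human counts were filtered with filterByExpr (15435 genes, 99.8% of human counts), scaled with TMM and fitted over all 15 libraries with edgeR's robust quasi-likelihood test (edgeR 4.0.16, limma 3.58.1, R 4.3.3). P-values were adjusted over all tested genes within a comparison; under 0.05 counted as changed. The SE is the log2 fold change over the square root of F. The script was checked on simulated data. All library values were given for 14 members named by rule and for members among the 5 smallest adjusted p in post-stress or in stress against post-stress that passed; of other lists up to 5 genes per comparison with the smallest p, and called paralogs. TFRC and ALDH3A1 were named after their values were seen, and 2 further genes are not reported here.

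Alternatives were DESeq2 size factors, library totals alone, the Wald test of DESeq2 1.42.0, limma-voom, no filter at all, a CPM of at least 1 in 5 libraries, the replicate number as a block, the mouse share as a covariate, only the groups compared, and leaving out each library. Leaving out no-stress replicates 1 and 5 together was chosen after seeing the data. Libraries of a group differed by far more than sampling noise (chi-square per gene 12.0 to 40.5), so none was counted as a duplicate.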

Additional observations from a re-analysis of the deposited data

Results flagged for a closer look

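In 5 of 120 groups (40 genes in 3 groups of 5 tumours) 1 tumour stood apart by Dixon's test, where chance gives about 6. ADM was 81.7 CPM in no-stress replicate 5, against 30.1 to 40.5 CPM in the other 4. EGLN3 was 144 CPM in no-stress replicate 1, against 286 to 343 CPM, and WSB1 was 141 CPM in the same tumour, against 169 to 178 CPM. LOXL2 was 78.2 CPM in stress replicate 2, against 111 to 121 CPM. PPP1R3C was 185 CPM in post-stress replicate 1, against 86.0 to 109 CPM.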

How the results depend on the processing

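Of the 26 changes called with stress 12 held in every fit and 16 in every fit without 1 library; of the 5 called with post-stress these were 2 and 3. No called member changed sign in any fit. Of members not called, 5 passed in some fit with stress and 14 with post-stress. With 5 tumours a group and this spread, a value that did not pass is no sign of equal levels.

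The number of members higher with stress was 13 without no-stress replicates 1 and 5 together and 16 to 27 without 1 library, and 18 to 29 under the other settings. The number lower was 1 with no filter, 0 without replicates 1 and 5 of the no-stress group and 1 to 2 without 1 library. Members higher with post-stress numbered 17 with DESeq2's Wald test, which also called 1 lower, 2 with the mouse share as a covariate, 2 with only the groups compared, 3 without no-stress replicates 1 and 5 together and 3 to 9 without 1 library. Over all tested genes, the 1613 calls with stress became 2167 with DESeq2's Wald test, 546 without no-stress replicates 1 and 5 together and 661 to 1834 without 1 library. The 130 calls with post-stress became 504 with DESeq2's Wald test, 38 with the covariate, 49 with only the groups compared, 32 without both no-stress replicates and 37 to 144 without 1 library. The 6 between stress and post-stress became 203, 0 and 1 in the first 3 of these, 36 with no filter and 0 to 189 without 1 library, the highest being without stress replicate 4. With library totals alone 664 genes were called higher and 986 lower with stress, instead of 807 and 806, and 59 and 62 with post-stress, instead of 92 and 38. The cause of these shifts was not tested, other than fewer samples or other tested genes where the setting itself implies them.

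Pairing by replicate number was checked on the deviations of log2 CPM from the group mean of each gene. Between same-numbered libraries of different groups these deviations correlated at −0.19 to 0.12 (1 of 15 pairs over 0.1). By this measure 1 of 15 libraries correlated best with its own number, so the numbers were not taken as pairs. With the replicate block 18 members were higher and 2 lower with stress, 2 were higher with post-stress (BNIP3L and PPFIA4, as with the covariate and with only the groups compared), and 990, 57 and 0 genes were called in all in the 3 comparisons. 

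Signs of uncalled differences near 0 were not stable: 3 members changed sign in some fit with stress, 3 with post-stress and 17 between stress and post-stress. On the log2 scale JMJD6 was −0.043 with stress and −0.059 with post-stress without no-stress replicates 1 and 5 together, and −0.13 with post-stress under the covariate. Without those replicates RORA was 0.012 with post-stress. VLDLR with post-stress was −0.041 with library totals alone and −0.00036 with limma-voom. Without 1 library, EPAS1 ranged from −0.0018 to 0.10 and ARNT from −0.087 to 0.029 with stress, VLDLR from −0.047 to 0.089 and RORA from −0.16 to 0.059 with post-stress, NDRG1 from −0.082 to 0.31 between stress and post-stress, and the difference in mouse share between stress and no stress from −3.27 to 0.370 points. In the 250 bases before the start alone, 80.0% of members' promoters and 54.1% of those of tested genes held a core.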
